A study of Mus musculus with 5 samples.

Results

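Cycling stromal cells of the newborn temporomandibular joint (TMJ) disc were examined in the 3 d library. They were selected on their own UMI counts (unique molecular identifiers, of which each captured transcript carries 1), by a rule on single cells: at most 30% of the UMIs from mitochondrial genes, at least 1% of the UMIs from Col1a1, Col1a2, Col3a1 and Dcn together, at least 1 UMI in 4 or more of Mki67, Top2a, Cenpf, Ube2c, Birc5, Cdk1 and Nusap1, and 0 UMIs of the endothelial genes Cdh5 and Pecam1, the leukocyte gene Tyrobp, the mural gene Rgs5 and the adventitial gene Pi16. The rule held for 451 of the 8311 stromal cells of this library, in a series of 51948 barcodes over 5 libraries. They were set beside the 5863 stromal cells of the same library that passed the same limits and had 0 UMIs of all 7 cycle genes, called 0-of-7 cells below. The 1997 stromal cells with 1 to 3 of the 7 genes belong to neither group.

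The study profiled discs of mice labelled WT and C57BL/6 with the 10x Genomics 3′ kit, with 1 library per condition. Untreated discs were taken at 3 d, at 3 w, then at 16 w and finally at 78 w, and the last library came from discs of 7-week-old mice whose anterior band had been injured with needles 2 weeks before. The injured library is labelled WT too, while the study's methods name Myh11-CreER+; Tmfl/- mice for their injury model, and which mice gave this library was not settled here. The 3 d suspension pooled male and female pups, whose number is not given in the sources used here, and the older untreated mice were males. Cells of 1 library are not replicates, so no test between conditions or groups of cells was possible. All intervals given are 95% intervals for counting error only.

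A cell that divides first copies its DNA in S phase, with helicase, polymerase and nucleotide-synthesis genes and with new histones to wrap the copies. It then condenses and holds together its chromosomes, builds a spindle, attaches chromosomes through kinetochores and splits in cytokinesis. The destruction of cyclins and other proteins, marked with ubiquitin by the anaphase-promoting complex, ends mitosis. In the disc, a fibrocartilage plate between mandible and skull, fibroblasts lay down type I and type III collagen, small proteoglycans and elastic fibre proteins.

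The 3 d library held 125130270 UMIs over 15169 barcodes, of which 14959 passed the mitochondrial limit and 12053 of these passed the collagen limit. Of 838 collagen-positive cells with 4 or more of the 7 genes, 387 held a UMI of an exclusion gene and were left out. Among all 12053 collagen-positive cells 3742 held one, a smaller part, so the limit took cells with the cycle mark more often. Pi16 was found in 254 of the 387, Pecam1 in 103, Rgs5 in 93, Cdh5 in 71 and Tyrobp in 33, so that some held more than 1. Cycling cells were deeper than 0-of-7 cells, with a median of 12228 against 7027 UMIs per cell and 3301 against 2133 genes per cell. With 2000 UMIs drawn from every cell, which left out 8 cycling and 802 0-of-7 cells, the medians were 1004 and 901 genes. More than 20000 UMIs were held by 9.53% of the cycling and 0.597% of the 0-of-7 cells. Barcodes that also occurred in another library numbered 7 of the 451 (1.55%) and 55 of the 5863 (0.938%). A doublet caller, Scrublet, marked 0 of 14959 cells at its own threshold, so doublets were not removed. In the highest 10% of its scores were 61 cycling cells (13.5%) and 394 0-of-7 cells (6.72%).

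Cells with 5 of the 7 genes were the rarest class. The number of stromal cells went from 5863 with 0 of the 7 genes to 1563, 315, 119, 75 and 62 with 1 to 5 of them, and was 87 with 6 and 227 with all 7. Just outside the rule, the 119 cells with 3 of the genes had a median of 8514 UMIs, and the 75 just inside it with 4 had 9744. Between these neighbours the summed level of 52 replication genes went from 2349.6 to 3727.3 CPM (UMIs of the gene per 1000000 UMIs of the group), and Ccnb1, the cyclin that drives entry into mitosis, from 22.3 to 38.1 CPM. These 2 classes are described only, since the rule separates them.

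**Figure D1:**
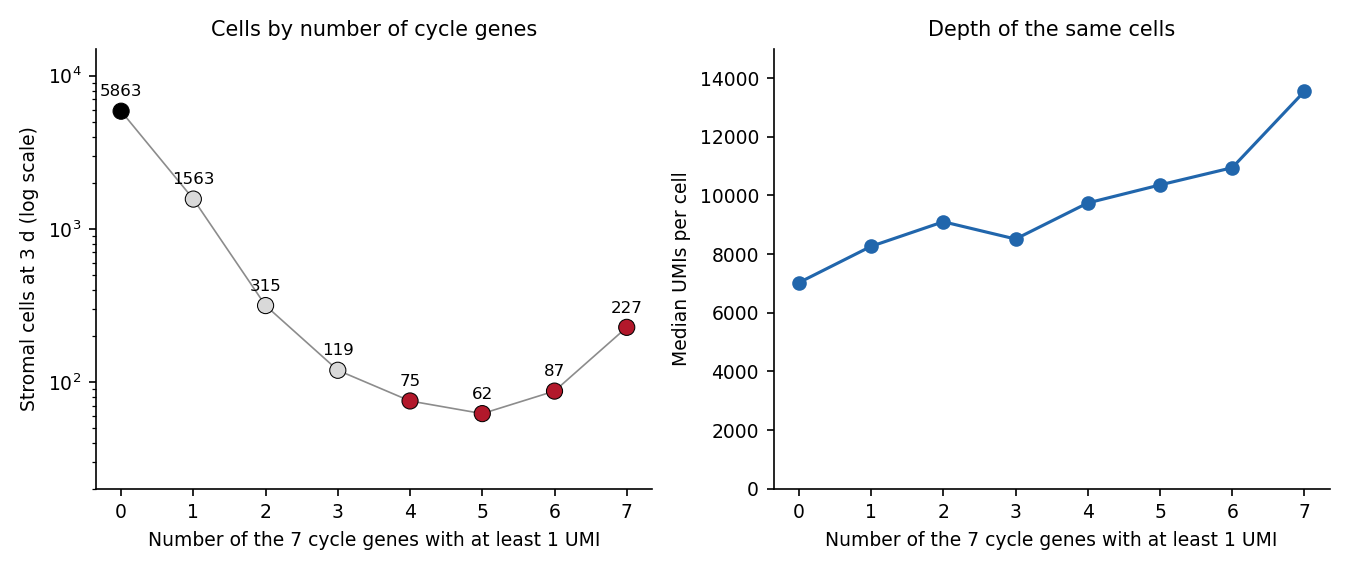
Left, number of stromal cells at 3 d (log axis) by how many of the 7 cycle genes had at least 1 UMI, in black for 0-of-7 cells, light grey for 1 to 3 and red for cycling cells; right, the median number of UMIs per cell of the same classes. The count is lowest at 5 genes, with 62 cells, and is 227 at all 7, where the median depth is also the highest, at 13549 UMIs.

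Among the genes that defined the cells, Birc5 (survivin, a subunit of the chromosomal passenger complex) had a UMI in 94.9% of the 451 cells, and Top2a, the topoisomerase that untangles sister DNA, in 90.7%. Ube2c, the ubiquitin-conjugating enzyme of the anaphase-promoting complex, was found in 88.2% and the mitotic kinase gene Cdk1 in 85.4%. The proliferation antigen gene Mki67 and Cenpf, a kinetochore gene, were each found in 84.3%, and the spindle gene Nusap1 in 75.6%. Their summed levels were 683.9 CPM for Top2a, 617.3 for Ube2c, 569.7 for Cenpf, 496.4 for Birc5, 325.6 for Cdk1, 249.9 for Mki67 and 208.0 for Nusap1, against 0 UMIs in the 0-of-7 cells by construction. They chose the cells and are a description.

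At 3 d cycling cells were 5.43% (4.95 to 5.93) of stromal cells. The same rule found 6 of 7054 stromal cells at 3 w, or 0.0851% (0.0312 to 0.185), and 16 of 6539 in the injured library, or 0.245% (0.140 to 0.397). It found 0 of 6606 at 16 w and 0 of 6705 at 78 w, which allows shares of up to 0.0454% and 0.0447% when 0 cells are taken as at most 3 (the exact 95% intervals end at 0.0558% and 0.055%). The interval at 3 d lay above those of the other 4 libraries, with 1 library per condition and therefore no measure of the spread between discs. The median stromal cell had 7532 UMIs at 3 d, 13144 at 3 w, 9507.5 at 16 w, 9708 at 78 w and 3489 in the injured library. With every cell thinned to 2000 UMIs, which left out 939, 98, 82, 126 and 1251 shallower cells in the same order, the shares were 2.82% (2.46 to 3.23) at 3 d, 0.0287% at 3 w and 0.0756% (0.0206 to 0.194) in the injured library, again with 0 cells at 16 w and at 78 w. The few cells found elsewhere also carried mitotic genes outside the rule. The mitotic cyclin and kinase list summed to 3734.1 CPM in the cycling cells at 3 d, 3195.7 in the 6 cells at 3 w and 4051.8 in the 16 cells of the injured library. The replication list summed to 3800.2, 2040.8 and 1832.8 CPM in the same cells. In stromal cells with 0 of the 7 genes the mitotic list summed to 375.3, 460.5 and 493.5 CPM in the same libraries. There the replication list summed to 720.5, 502.1 and 431.3 CPM. The 6 and 16 cells held only 63209 and 132041 UMIs and were picked by mitotic genes, so their sums are a description.

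Of the 27998 genes in the files, 9099 had at least 100 UMIs in the group with the higher level and were compared by the ratio of their CPM, summed over the cells of each group. At least 2-fold higher in cycling than in 0-of-7 cells were 539 genes (5.92%), and at least 2-fold lower were 276 (3.03%). Because the rule set this contrast, these are descriptions. The median ratio was 0.947, and 40.6% of the genes lay above 1. At least 10-fold higher were 170 genes, the 7 of the rule among them, and at least 10-fold lower was 1. The 2 directions cannot be set against each other, because 100 UMIs are 17.2 CPM in cycling cells and 2.42 CPM in the more numerous 0-of-7 cells, and the 3 counts taken for lower values are 0.515 and 0.0726 CPM. Rarer genes could thus enter only as lower, and the rarest of them could not reach 10-fold. The higher genes together took 6.83% of the UMIs of cycling cells and 1.44% of those of 0-of-7 cells. The cell cycle lists, with the 7 rule genes, held 167 of the 539, and 367 were on none of the 29 lists.

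**Figure D2:**
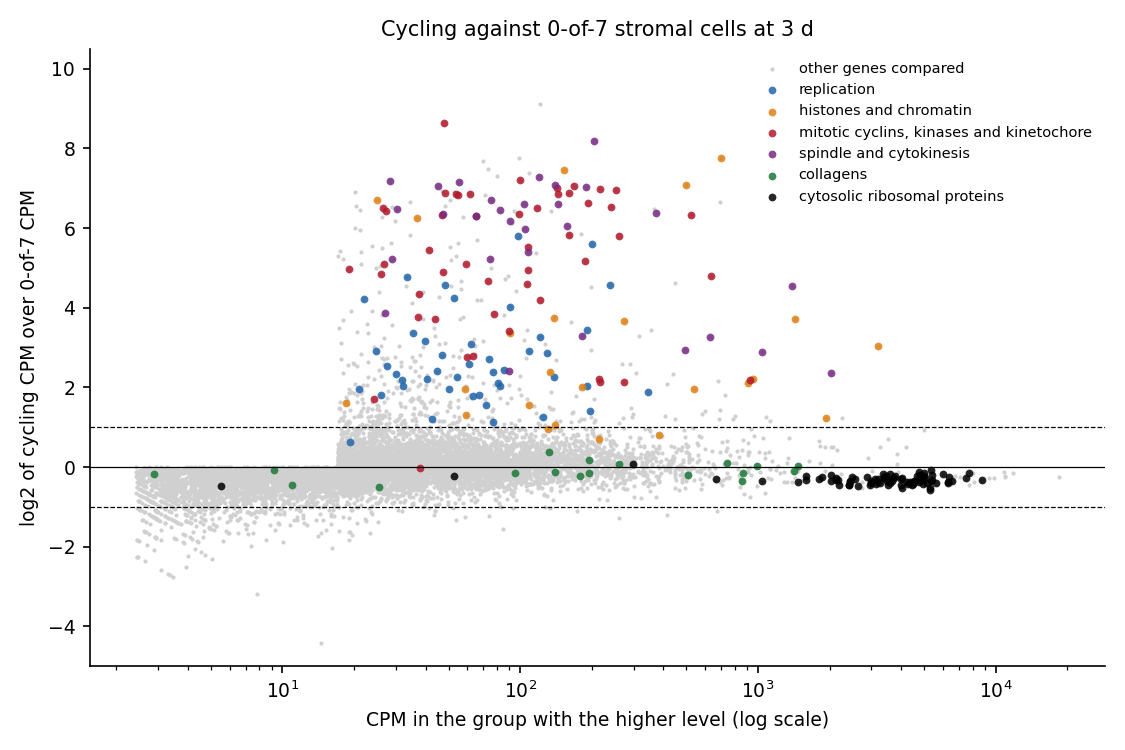
Each of the genes compared, by its CPM in the group with the higher level (log axis) and the log2 of its ratio, cycling over 0-of-7 cells, with the 7 genes of the rule left out and dashed lines at 2-fold. The coloured cell cycle genes reach log2 values above 8, while collagens (green) and cytosolic ribosomal proteins (black) lie near or just below 0.

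DNA replication genes were higher almost throughout. Of 52 listed, 44 were compared, 43 were at least 2-fold higher and 0 lower, with a median ratio of 5.24 beside 0.947 over all genes. The 6 subunits of the Mcm2 to Mcm7 helicase, which opens the DNA ahead of the polymerases, ranged from 2.31 for Mcm4 to 6.99 for Mcm5. Rrm2 and Tk1, which serve nucleotide supply, had higher ratios. Rrm2, the regulated subunit of ribonucleotide reductase, had 238.2 CPM in cycling and 9.95 CPM in 0-of-7 cells, a ratio of 23.9 (21.4 to 26.8). Tk1, thymidine kinase, had 199.6 and 4.09 CPM, a ratio of 48.8 (41.5 to 57.7). The repair genes Rad51ap1 and Brca1, which serve homologous recombination, had ratios of 55.3 (43.3 to 71.6) and 27.1 (19.8 to 37.7). The most abundant member, Dut, which keeps uracil out of DNA, went from 92.8 to 344.4 CPM, a ratio of 3.71. Pcna, the sliding clamp of the polymerases, had 138.9 and 29.1 CPM, a ratio of 4.78 (4.36 to 5.23). The exception was Cdca7, a chromatin gene, at 1.55.

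Histone and chromatin genes were higher in 21 of 24, with a median ratio of 4.45. Hmgb1, a DNA-bending protein gene, went from 817.8 to 1938.4 CPM, a ratio of 2.37 (2.32 to 2.42), and its relative Hmgb2 from 107.8 to 1428.0, a ratio of 13.2 (12.8 to 13.7). The variant histone gene H2afz had 3181.7 CPM in cycling and 384.3 in 0-of-7 cells. The linker histone genes Hist1h1b and Hist1h1d had ratios of 175.1 (125.5 to 251.6) and 103.6 (54.8 to 220.6), and the core histone genes Hist1h2ap and Hist1h2ae 218.0 (183.4 to 261.1) and 135.6 (115.2 to 160.7). Core histone genes have near-identical copies, so their single values are uncertain. How fully the 3′ kit captures linker and core histone transcripts was not tested, so their levels beside those of other genes are uncertain too. The 3 listed genes under 2-fold were the heterochromatin protein genes Cbx1 at 1.63, Cbx3 at 1.75 and Cbx5 at 1.92.

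Condensins compact chromosomes, and cohesin holds sister chromatids together. All 8 condensin subunit genes compared were at least 2-fold higher, from 2.85 for Ncaph2 to 112.7 (75.8 to 174.6) for Ncapg. Smc2, shared by both condensins, had 446.0 CPM in cycling and 18.1 in 0-of-7 cells. Of 5 cohesin ring genes 2 were at least 2-fold higher, Rad21 at 6.01 (5.61 to 6.43) and Smc1a at 2.18 (2.04 to 2.33), though under 2-fold with no exclusion genes and against depth-matched cells (log2 ratios of 0.96 and 0.98), while Smc3 was at 1.86, Stag1 at 1.71 and Stag2 at 1.32. Cohesin is also present outside the cell cycle, and the 0-of-7 cells had 78.2 CPM of Smc3 and 73.1 of Stag1. Esco2, which locks cohesin in S phase, had a ratio of 215.1 (136.5 to 360.0), and the shugoshin genes Sgol2a and Sgol1, which guard cohesion at the centromere, 85.4 and 76.9. Over the 18 genes of the list 13 were at least 2-fold higher, with a median ratio of 9.58.

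Genes of mitosis showed the highest ratios. Of 26 mitotic cyclins, kinases and their regulators compared, 25 were at least 2-fold higher, with a median of 45.6. The mitotic cyclin genes Ccna2, Ccnb1 and Ccnb2 had 217.3, 159.9 and 241.5 CPM in cycling cells and 1.72, 1.36 and 2.64 CPM in 0-of-7 cells. Bub1, a kinase of the spindle checkpoint, had 279 UMIs in cycling and 5 in 0-of-7 cells, a ratio of 396.0 (167.7 to 1229.1). Pbk, a mitotic kinase gene, had a ratio of 134.0 (101.4 to 180.7). Ube2s, the partner of Ube2c on the anaphase-promoting complex, was the most abundant member, at 926.3 and 201.9 CPM, a ratio of 4.59. The gene that stood apart was Pttg1, securin, with 37.4 CPM in cycling and 37.9 in 0-of-7 cells, a ratio of 0.988 (0.853 to 1.14).

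Kinetochore genes, which join chromosomes to the spindle, were at least 2-fold higher in 23 of 23 compared, with a median ratio of 43.9 and a range from 4.42 for Bub3 to 146.7 for Nuf2. Cenpa, the centromeric histone, was the most abundant, at 523.3 CPM in cycling and 6.53 in 0-of-7 cells, a ratio of 80.1 (70.7 to 91.0). Casc5, the kinetochore scaffold, and Cdca8 (borealin, of the passenger complex) had ratios of 128.0 (95.1 to 176.3) and 124.5 (99.9 to 157.1). Spindle and cytokinesis genes were at least 2-fold higher in 29 of 29, with a median of 79.5. The 10 kinesin motor genes among them ranged from 14.7 for Kif18a to 154.4 (108.3 to 227.4) for Kif11, the motor that pushes spindle poles apart. Hmmr, a spindle assembly gene, was at 204.0 and 0.702 CPM, a ratio of 290.7 (201.4 to 436.0). The tubulin genes, used by every cell, lay lowest: Tubb5 went from 395.1 to 2022.9 CPM, a ratio of 5.12 (5.00 to 5.24). Stmn1, which destabilizes microtubules, had 1395.8 and 60.1 CPM, a ratio of 23.2.

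**Figure D3:**
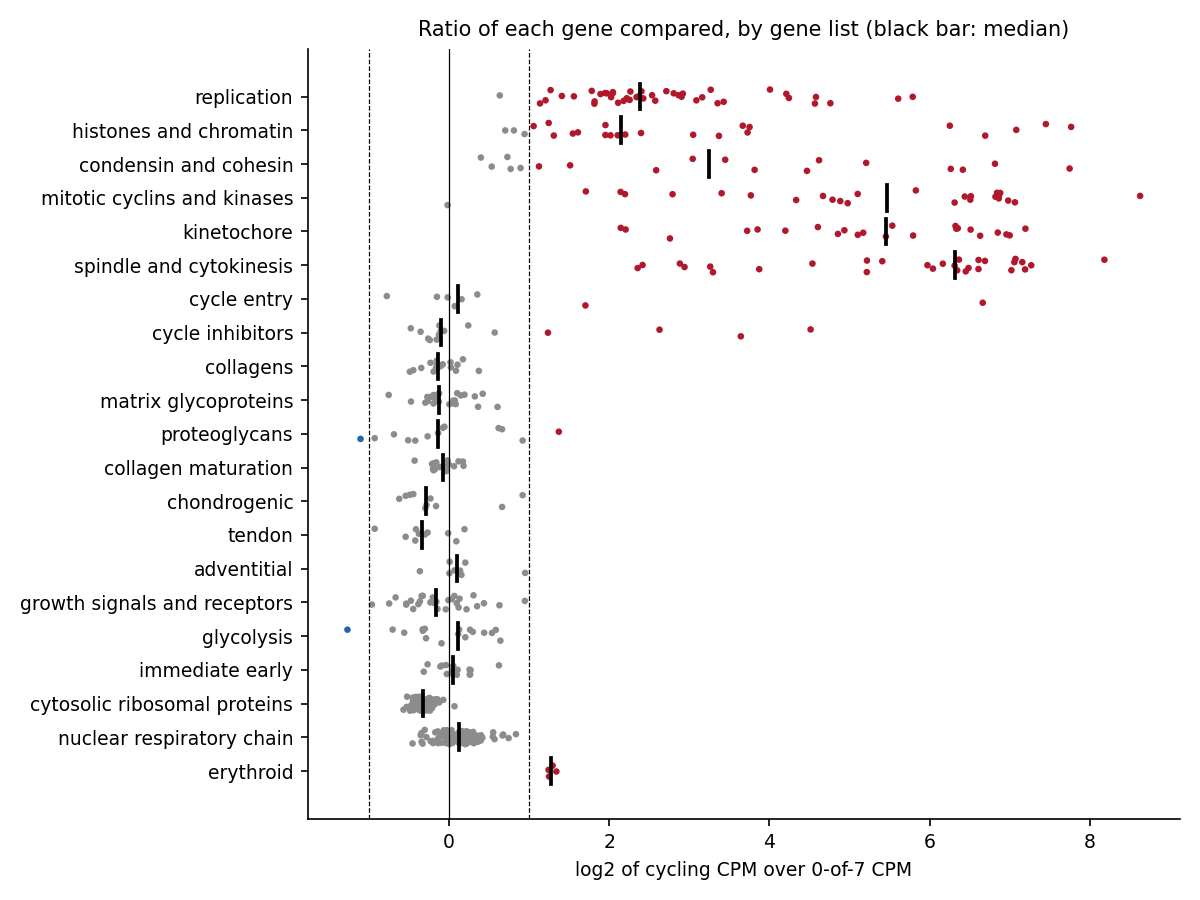
Log2 of the ratio, cycling over 0-of-7 cells, for every gene compared of 21 lists, in red at 2-fold or more higher, blue at 2-fold or more lower and grey between, with a black bar at the median of each list. The 6 uppermost lists, of replication to cytokinesis, lie almost wholly to the right of the dashed 2-fold line, and the matrix, ribosomal and respiratory lists lie around 0.

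Promoters of these genes are shown because replication and mitosis genes are known to be read by different factors, E2F on the one hand and NF-Y with the MuvB complex on the other. Windows from 250 bases before to 50 after the start were taken from RefSeq on GRCm38.p6 and searched on both strands for CCAAT (the NF-Y box), TTTGAA (the cell cycle homology region) and either of TTCCCGC and TTGGCGC (E2F-like). The other strand of TTGGCGC and CCAAT can share letters, so the 2 are not independent. Of 27025 genes with a window, 41.1% held CCAAT, 20.2% TTTGAA, 7.79% an E2F-like sequence and 7.97% both CCAAT and TTTGAA. Of 52 replication genes 41 matched the table by symbol, and 56.1% of these held an E2F-like sequence, 61.0% CCAAT and 9.76% TTTGAA. Of 89 mitotic, kinetochore, spindle and rule genes 74 matched, and 16.2% held an E2F-like sequence, 74.3% CCAAT, 60.8% TTTGAA and 52.7% both CCAAT and TTTGAA. Of the 7 rule genes 5 held both. The 16 matched collagen genes held CCAAT in 43.8% and both in 0. A match is a description of letters and not a bound site.

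The 160 bases before the start follow for 4 genes of the rule, 2 other mitotic genes and 1 helicase gene, 5′ to 3′ in the gene's direction, with the motifs in capitals. They are Top2a at chr11:99024190-99024349 (minus strand), Ube2c at chr2:164769769-164769928 (plus), Mki67 at chr7:135716380-135716539 (minus), Cdk1 at chr10:69352913-69353072 (minus), Cdc20 at chr4:118437344-118437503 (minus), Depdc1a at chr3:159495273-159495432 (plus) and Mcm5 at chr8:75109349-75109508 (plus).
Top2a: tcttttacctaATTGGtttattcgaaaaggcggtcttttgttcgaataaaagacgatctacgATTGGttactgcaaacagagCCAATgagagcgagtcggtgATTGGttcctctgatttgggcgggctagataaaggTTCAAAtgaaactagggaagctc
Ube2c: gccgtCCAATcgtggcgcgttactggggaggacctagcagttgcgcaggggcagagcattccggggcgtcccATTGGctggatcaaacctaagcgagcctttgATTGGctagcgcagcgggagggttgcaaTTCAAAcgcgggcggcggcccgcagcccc
Mki67: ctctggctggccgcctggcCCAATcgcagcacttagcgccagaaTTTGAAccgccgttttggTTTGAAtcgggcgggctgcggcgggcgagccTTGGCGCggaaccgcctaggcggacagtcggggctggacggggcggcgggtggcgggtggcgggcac
Cdk1: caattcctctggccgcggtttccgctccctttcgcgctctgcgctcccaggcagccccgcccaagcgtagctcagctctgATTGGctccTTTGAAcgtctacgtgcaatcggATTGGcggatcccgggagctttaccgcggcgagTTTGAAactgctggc
Cdc20: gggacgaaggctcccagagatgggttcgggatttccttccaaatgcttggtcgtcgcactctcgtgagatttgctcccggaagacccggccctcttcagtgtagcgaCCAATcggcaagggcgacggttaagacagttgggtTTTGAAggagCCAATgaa
Depdc1a: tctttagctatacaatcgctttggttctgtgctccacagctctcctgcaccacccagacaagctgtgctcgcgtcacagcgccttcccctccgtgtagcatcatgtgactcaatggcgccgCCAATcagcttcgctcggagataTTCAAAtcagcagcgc
Mcm5: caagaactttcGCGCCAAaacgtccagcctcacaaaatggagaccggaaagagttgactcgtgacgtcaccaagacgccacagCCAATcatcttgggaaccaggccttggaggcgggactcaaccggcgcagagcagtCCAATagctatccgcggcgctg
These windows were chosen for their motifs. The 160 bases before Cenpf, Nusap1, Birc5, Plk1, Ccnb1, Ccnb2 and Hmmr, also rule or mitotic genes, hold no TTTGAA, and those of Nusap1 and Birc5 no CCAAT either. In the first 6 windows CCAAT, or ATTGG on the other strand, occurs 1 to 4 times and TTTGAA, or TTCAAA, 1 or 2 times. Mki67 also holds TTGGCGC. The Mcm5 window holds CCAAT 2 times and GCGCCAA, the other strand of TTGGCGC, and no TTTGAA. In the cells, Mcm5 had a ratio of 6.99, Cdc20 (an activator of the anaphase-promoting complex) 56.8 and Depdc1a 553.5.

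Outside the lists, the 15 genes with the highest ratios ran from 89.6 to 553.5 and had 7 to 284 UMIs in 0-of-7 cells. The highest was Depdc1a, a mitotic gene, with 120.6 CPM in cycling and 0.218 CPM (9 UMIs) in 0-of-7 cells, a ratio of 553.5 (289.9 to 1215.6). Neil3, a DNA glycosylase of S phase, Shcbp1, a cytokinesis gene, and Mxd3, of the Myc and Max network, had ratios of 178.7, 157.8 and 136.0. The most abundant of them was 2810417H13Rik, the PCNA-associated factor, at 693.2 CPM in cycling and 6.87 in 0-of-7 cells, a ratio of 100.9 (89.4 to 114.2). Cdca3, a trigger of mitotic entry, had 364.5 and 4.07 CPM. Iqgap3, Dlgap5, Sapcd2, Cdca2, Cdca5 and Gsg2 (haspin, a histone kinase) lay between 91.7 and 121.5, and the other 3 were histone genes. Ranked instead by level in cycling cells, a choice made after the values were seen, the leading unlisted genes at least 2-fold higher were Calm2 (calmodulin) at 1123.6 and 504.8 CPM, Tuba1a at 784.9 and 340.5, and Ran, the GTPase of nuclear transport and spindle assembly, at 724.1 and 206.5, a ratio of 3.51. Nucks1, a chromatin gene, had 681.0 and 153.3 CPM, and Tmpo, of the nuclear lamina, 316.4 and 32.4.

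Genes upstream of S phase were mixed. Of 13 cycle entry genes 8 were compared, of which 2 were at least 2-fold higher, E2f8, a repressor made late in S phase, at 101.4 (59.0 to 188.8) and Cdk2 at 3.26 (2.75 to 3.85), and the median was 1.08, which turned below 1 in several alternatives. The D-type cyclin genes, which couple growth signals to the cycle, were at 21.8 and 19.6 CPM for Ccnd1 and 113.4 and 114.6 CPM for Ccnd3. Ccnd2 was the most abundant and lower in cycling cells, at 188.4 CPM against 322.6, a ratio of 0.584 (0.549 to 0.621). Its kinase partner Cdk4 had a ratio of 1.28 (1.21 to 1.35), and Myc 0.901. Among the 5 under the minimum of 100 UMIs, E2f2 had 13.2 CPM (77 UMIs) in cycling and 1.21 (50 UMIs) in 0-of-7 cells, Rb1 10.1 and 3.39, Tfdp1 12.7 and 5.08, E2f3 11.7 and 6.73, and Mycn 3.43 and 2.95.

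Of 15 genes that restrain the cycle 4 were at least 2-fold higher and 0 lower, with a median of 0.931. The 4 were Cdkn2c and Cdkn2d, inhibitors of Cdk4 and Cdk6, at 22.9 (20.3 to 25.8) and 12.5 (11.2 to 13.9), Rbl1, the retinoblastoma relative p107, at 6.18, and Ccng2 at 2.36. The inhibitor Cdkn1c was the most abundant, at 1114.5 CPM in cycling and 1238.8 in 0-of-7 cells, a ratio of 0.8996 (0.877 to 0.923). Cdkn1b had 47.1 and 31.7 CPM and Cdkn1a 127.6 and 108.0. Of the 4 listed genes under the minimum, Cdkn2a had 2.92 CPM (17 UMIs) in cycling and 0.121 (5 UMIs) in 0-of-7 cells and Cdkn2b 1.202 and 0.242 CPM (7 and 10 UMIs). E2f4 and Rbl2 had 14.4 and 16.5 CPM against 12.7 and 16.2. Foxo3 and Foxo1, transcription factors of quiescence, had the lowest ratios, 0.719 and 0.782.

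Collagen genes outside the rule were at similar levels in both groups. Of 18 compared 0 were past 2-fold in either direction, the median was 0.911, and the range ran from 0.713 for Col9a2 to 1.29 for Col15a1. The 19 listed summed to 7584.1 CPM in cycling and 7932.3 in 0-of-7 cells, a ratio of 0.956 (0.947 to 0.966). Col6a1, a chain of pericellular type VI collagen, had 1469.2 and 1449.8 CPM, and Col14a1, which binds along collagen fibrils, 674.6 and 857.2. Col1a1 and Col3a1, which the rule used as a lower limit, had 9272.4 and 7249.7 CPM in cycling cells against 10956.9 and 7989.8. Enzymes and chaperones of collagen maturation were also past 2-fold in 0 of 18, with a median of 0.95, a range from 0.743 for P3h1 to 1.13, and 939.3 against 1016.3 CPM for the chaperone gene Serpinh1.

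Glycoproteins of the matrix were past 2-fold in 0 of 25, with a median of 0.918. Sparc, which binds collagen and mineral, had 10675.6 CPM in cycling and 11794.5 in 0-of-7 cells. Mgp, an inhibitor of calcification, was lowest, at 550.1 and 926.6 CPM, a ratio of 0.594 (0.573 to 0.616). Eln, the elastin gene, had 2144.3 and 1601.2 CPM, a ratio of 1.34 (1.31 to 1.37), which turned to 0.937 when the 0-of-7 cells were drawn to the UMI depth of the cycling cells. Of 13 proteoglycan genes 1 was at least 2-fold higher and 1 lower, with a median of 0.911. Ogn, osteoglycin, had 314.1 CPM in cycling and 675.2 in 0-of-7 cells, a ratio of 0.465 (0.443 to 0.488), and 0.427 against the depth-matched cells. In cells thinned to 2000 UMIs it was at a log2 ratio of -0.99, just short of 2-fold. Prg4, lubricin of the joint surface, had 166.4 and 64.3 CPM, a ratio of 2.59 (2.40 to 2.79). The Prg4 value rests on few cells: 101 cycling cells held a UMI, 1 of them held 16.6% of the UMIs, and without the top cell of each group the ratio was 2.28. With a collagen limit of 5% Prg4 turned lower, to a log2 ratio of -0.72, and with no exclusion genes or in cells with Xist it was under 2-fold, at log2 ratios of 0.79 and 0.65. Bgn and Hapln1, a core protein and a link protein, had ratios of 0.911 and 1.89, and Hapln1 was at 2.28 against the depth-matched cells.

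Genes of skeletal lineages held none past 2-fold among those compared. Chondrogenic genes were past 2-fold in 0 of 10 compared, with a median of 0.820: Sox9, the master factor of cartilage, had 152.9 and 222.3 CPM, Sox6 35.6 and 54.7, and Acan (aggrecan) 177.4 and 112.1. Acan and Hapln1 lay above 1 and the other 8 below it, among them Sox9, Sox6 and Col9a2. Tendon genes were past 2-fold in 0 of 10, with a median of 0.792; Kera (keratocan), Fmod (fibromodulin) and Scx (scleraxis, a tendon factor) had ratios of 0.526, 0.747 and 0.752. None of 10 osteogenic genes reached 100 UMIs in the group with the higher level, and they summed to 21.3 and 19.4 CPM. Of 10 adventitial genes 8 were compared and 0 were past 2-fold, with Sfrp2 at 1004.6 and 1292.1 CPM and Ly6a at 63.5 and 32.9, a ratio of 1.93.

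Growth signals and receptors were past 2-fold in 0 of 29, with a median of 0.897. Ptn (pleiotrophin), a secreted growth factor, was the most abundant, at 6194.3 CPM in cycling and 8073.4 in 0-of-7 cells, a ratio of 0.767 (0.759 to 0.776). Igf2 had 1481.0 and 1445.1 CPM, and Igf1 394.5 and 499.7. Fgf18, a factor of skeletal growth, had the lowest ratio, 0.514 (0.432 to 0.607), followed by Igfbp5, a binding protein of the insulin-like growth factors, at 0.596. Tgfb1 had the highest, 1.93 (1.63 to 2.27), and was at 2.31 against the depth-matched cells.

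Genes of protein synthesis and energy were all within 2-fold except Aldoa. Of 81 cytosolic ribosomal protein genes compared 80 lay below 1, none past 2-fold, with a median of 0.798 and a range from 0.675 (Rpl10) to 1.05. They summed to 244891.6 CPM in cycling and 304672.7 in 0-of-7 cells, a ratio of 0.804 (0.802 to 0.805). Rpl10 had 3573.0 and 5295.6 CPM. Of 89 nuclear genes of the respiratory chain 60 lay above 1, 0 past 2-fold, with a median of 1.09, which turned below 1 with a collagen limit of 5% (log2 ratio -0.14); Cycs (cytochrome c) had 172.6 and 96.7 CPM and Cox7a2 495.0 and 295.4. CPM is a share of each group's UMIs, and no spike-in gives a level per cell. Of 17 glycolysis genes 1 was past 2-fold, Aldoa (aldolase A), at 108.2 CPM in cycling and 260.4 in 0-of-7 cells, a ratio of 0.416 (0.383 to 0.450), while Gapdh was at 1.23 and Pgam1 at 1.5. Immediate early genes, which dissociation can induce, were past 2-fold in 0 of 16, with a median of 1.04 and Fos at 1328.2 and 1240.5 CPM.

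Of the 276 lower genes 75% had under 10 CPM in 0-of-7 cells, the group with their higher level. Under the UMI minimum, a gene whose higher level was below 17.2 CPM could be compared only as lower. The 15 lowest outside the lists had 2 to 6 UMIs in cycling cells and 101 to 603 in 0-of-7 cells. The lowest, Ccl5, a chemokine gene of leukocytes, had 4 and 603 UMIs, a ratio of 0.0471 (0.0128 to 0.121), with 21.6% of the 603 in a single cell, and with no exclusion genes in the rule it was at a log2 ratio of -0.61. C2cd4b was at 0.110 (0.0354 to 0.259) with 5 and 323 UMIs. Of genes with at least 50 CPM in 0-of-7 cells 12 were at least 2-fold lower, singled out after their values were seen. Beside Ogn and Aldoa they included Kdm5b, a histone H3 demethylase, at 29.2 and 85.1 CPM, a ratio of 0.343 (0.293 to 0.400), and Mxd4, which opposes Myc, at 81.6 and 173.8 CPM, a ratio of 0.469 (0.427 to 0.515). Tagln (transgelin) and Mylk (myosin light chain kinase), genes of contractile cells, had ratios of 0.418 and 0.492, while Acta2, the smooth muscle actin gene, was at 1.28, and Fgfbp1, which releases fibroblast growth factors, 0.396. Against the depth-matched cells Mylk was at 0.519. With no UMI minimum applied there, 184 of the 276 were still at least 2-fold lower and 273 were below 1, and of the 539 higher genes 501 were still at least 2-fold higher. The cycling cells are the same in that run and the matched cells are drawn from the 0-of-7 cells, so this agreement is partly built in. With the minimum, over 381 comparison cells, 32 genes were at least 2-fold lower.

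Endothelial, leukocyte, mural, skeletal muscle and Schwann markers were at low summed levels in both groups. The part of these and other cell markers in the results was not tested except where a value is given. Of 8 endothelial markers Cdh5 and Pecam1 were at 0 by the rule; the list summed to 36.4 CPM in cycling and 23.9 in 0-of-7 cells, with Egfl7 the most abundant. Of 8 leukocyte markers Tyrobp was at 0 by the rule, and the sums were 14.3 and 20.04 CPM, with Cd68 the most abundant. Of 8 mural markers Rgs5 was at 0 by the rule, and the sums were 107.9 and 90.2 CPM, led by Acta2. The 8 skeletal muscle markers summed to 23.9 and 37.5 CPM, led by Mylpf; Acta1 was at a ratio of 0.410, with 24.9% of its UMIs in 0-of-7 cells held by 1 cell. The 6 Schwann markers summed to 15.6 and 18.9 CPM, led by S100b, with Cdh19 at 0 UMIs in cycling cells.

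Prg4 was the only higher gene among the 5 compared of the synovial lining list (231.7 and 130.1 CPM summed). Beside it, of the lists of other cells only the erythroid list held genes at least 2-fold higher among those with enough UMIs to be compared. The erythroid list summed to 4734.7 CPM in cycling and 1969.9 in 0-of-7 cells. Under that minimum, the endothelial gene Plvap had 12.02 CPM (70 UMIs) in cycling and 4.94 CPM (204 UMIs) in 0-of-7 cells, and the endothelial sum had a ratio of 1.52 (1.31 to 1.77). The 4 haemoglobin genes compared, Hbb-bs, Hbb-bt, Hba-a1 and Hba-a2, had ratios from 2.37 to 2.53, with Hbb-bs the most abundant at 2264.4 and 956.3 CPM. In 7 cycling cells and 53 0-of-7 cells haemoglobin genes were 1% or more of the UMIs, up to 47.2% and 60.5%. Without those cells the 4 genes summed to 304.5 CPM in cycling and 389.2 in 0-of-7 cells, a ratio of 0.782 in place of 2.40. Alas2, a red cell gene of haem synthesis, had 35 UMIs in cycling cells. Leaving those cells out gave 537 genes at least 2-fold higher and 276 lower.

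The same 4-of-7 mark was also counted in other cells of the 3 d library. It was met by 206 of 916 cells with 4 or more of the 8 endothelial markers, or 22.5% (19.8 to 25.3), by 75 of 298 with 4 or more leukocyte markers, or 25.2% (20.3 to 30.5), and by 85 of 398 with 4 or more mural markers, or 21.4% (17.4 to 25.7). Of 60 cells with 4 or more skeletal muscle markers 4 did, or 6.67% (1.85 to 16.2), and of 35 cells with 3 or more of the 6 Schwann markers 9 did, or 25.7% (12.5 to 43.3). The median UMIs of these classes were 6763.5, 12147.5, 8561, 8310.5 and 7183, against 7532 in all stromal cells, so the shares are not compared further.

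Levels of genes outside the rule were graded with the number of rule genes detected. The spindle and cytokinesis list climbed at each step, from 789.5 CPM at 0 of 7 to 910.7, 1279.8, 2382.0, 3530.1, 4563.0, 7353.9 and 10145.8 at 7 of 7. The replication list was highest at 6 of 7, at 4532.2 CPM, and lower at 7 of 7, at 3525.9. Rrm2 had the same shape, with 321.2 CPM at 6 and 220.9 at 7, while Ccnb1 went from 39.8 at 5 to 117.7 and 223.6 CPM. Ogn ran the other way over the same classes, from 675.2 CPM at 0 of 7 to 642.4, 569.3, 395.3, 388.9, 323.1, 310.6 and 297.1. Ogn was thus already low at 3 of 7, outside the cycling group. Ccnd2 went from 322.6 CPM at 0 to 229.2 at 3, 315.5 at 4 and 156.9 at 7. Collagens outside the rule stayed between 6990.2 and 8209.9 CPM in all 8 classes. The classes also differ in depth, which is given in the plot of cells by number of cycle genes.

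**Figure D4:**
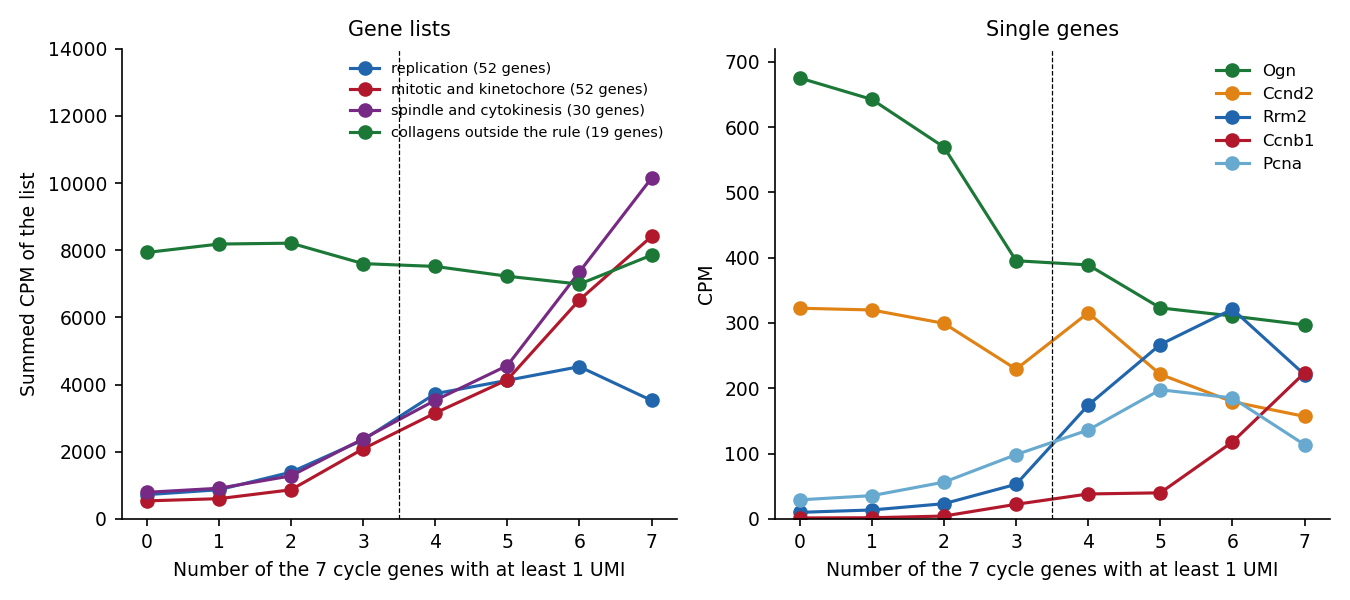
Summed CPM of 4 gene lists (left) and CPM of 5 single genes (right) over the stromal cells of 3 d with 0 to 7 of the 7 cycle genes detected; the dashed line parts the cycling cells, at 4 or more, from the rest. The mitotic and spindle lines climb to the right end, the replication line peaks at 6, and Ogn and Ccnd2 are lowest at 7.

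The 451 cells differed in their balance of replication and mitotic genes. They were ranked by the share of replication genes in the summed UMIs of the replication, mitotic and kinetochore lists, and cut into 4 parts of 113, 113, 113 and 112 cells with median shares of 62.3%, 42.3%, 23.6% and 11.7%. These are ranges of a score, not types, and 215 cells lay within 5 percentage points of a cut. The genes of the score follow it by construction: Ccne2, the S phase cyclin, went from 89.4 CPM to 35.4, 11.2 and 0, and Ccnb1 from 25.2 to 66.8, 200.1 and 383.7. The median number of UMIs per cell was 13182, 12292, 12276 and 10707.5.

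Genes that the score did not use had courses of their own. The replication-dependent histone Hist1h2ap peaked in the second part, at 672.5, 1205.9, 753.0 and 70.8 CPM, and the linker histone Hist1h1b likewise, at 162.2, 243.2, 165.1 and 17.3. The cohesin gene Esco2 took the same course, at 105.9, 146.2, 100.4 and 32.2 CPM. The variant histone H2afz, whose transcript does not depend on replication, climbed instead from 2302.2 to 2999.8, 3589.4 and 3959.3. Of the rule genes, Top2a was highest in the third part, at 521.6, 755.7, 832.3 and 614.0 CPM, while Cenpf climbed from 83.4 to 306.7, 669.1 and 1344.4 and Ube2c from 113.9 to 423.4, 870.6 and 1146.3. The spindle gene Hmmr climbed from 62.2 to 396.2 CPM over the 4 parts, Kif20a, a motor of cytokinesis, from 21.2 to 142.3, and Tubb4b from 165.5 to 927.7. All 7 rule genes were found in 19 cells of the first part and in 69, 78 and 61 of the others.

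Other genes outside the score are given in the same order. Ogn had 389.9, 370.3, 299.2 and 174.5 CPM from the first part to the fourth, and Ccnd2 291.9, 190.1, 141.4 and 119.5, while both were higher in 0-of-7 cells than in any part. Cdk4 went from 377.3 to 304.1, 261.6 and 183.2 CPM, so that it lay above the 223.5 CPM of 0-of-7 cells in the first part and below it in the fourth. Eln was at 1948.1, 2619.0, 2629.6 and 1230.4 CPM. Cytosolic ribosomal proteins summed to 258679.4 CPM in the first part and 228759.9 in the fourth. Col1a1 did not run one way, at 9249.3, 9195.3, 8641.9 and 10142.8 CPM, nor did Cdkn1c, at 1130.6, 1181.0, 1165.2 and 955.2.

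**Figure D5:**
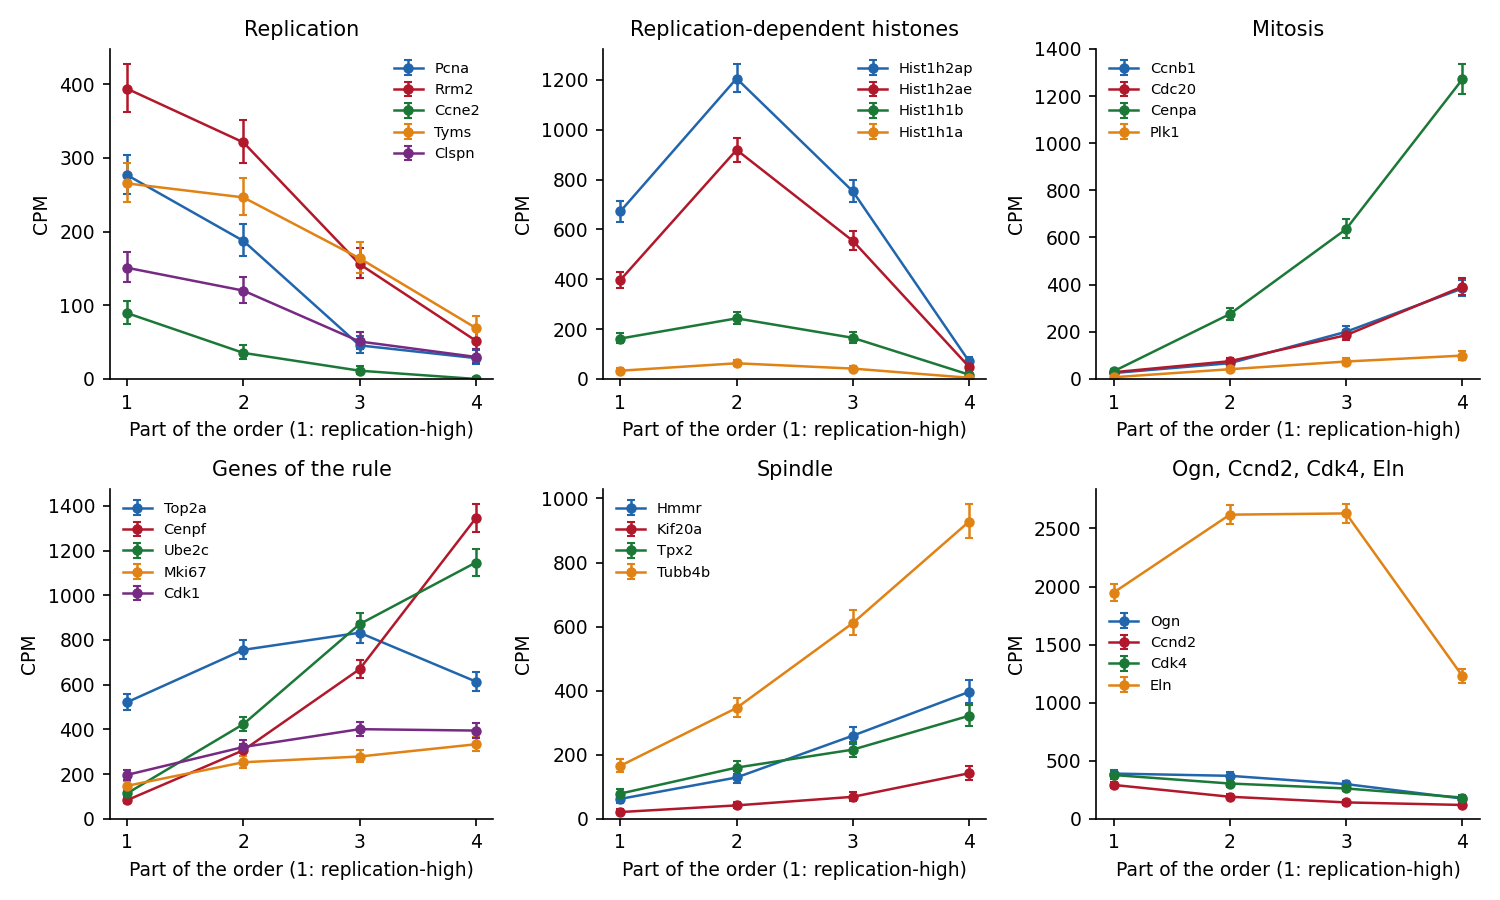
CPM of named genes in 4 parts of the cycling cells, ordered from the highest (1) to the lowest (4) share of replication genes, with 95% Poisson intervals as bars, which cover counting error only. Replication genes fall and mitotic genes climb, as the ranking sets, while the replication-dependent histones peak in part 2, Top2a in part 3, and Ogn, Ccnd2 and Cdk4 are lowest in part 4.

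Because male and female pups shared the suspension, cells were parted by transcripts of Xist, made from the inactive X chromosome of females, and of the Y chromosome. Of the stromal cells 4180 had a UMI of Xist and none of 4 Y-linked genes, and 1812 had a Y-linked UMI and none of Xist. Cycling cells were 246 of the first, or 5.89% (5.19 to 6.64), and 104 of the second, or 5.74% (4.71 to 6.91), at median depths of 7867.5 and 8037.5 UMIs, and the intervals overlap. Cells with both kinds of UMI numbered 534 and had 10.49%, and cells with neither numbered 1785 and had 2.52%, at median depths of 11728.5 and 4648. Those with both included 56 of the 451 cycling cells and 302 of the 5863 0-of-7 cells. Whether such barcodes held more than 1 cell was not tested. Of 4140 genes that could be compared in both sets, 187 were at least 2-fold higher in all cells, and 178 of these were so in both sets. Of 66 lower genes 45 were at least 2-fold lower in both and 66 were below 1 in both. Only these 187 of the 539 higher and 66 of the 276 lower genes had enough UMIs. Both sets are parts of the cells that gave the calls, so this agreement is partly built in. Ogn had ratios of 0.563 and 0.311 in the Xist and the Y-linked set, Ccnd2 0.568 and 0.460, and Aldoa 0.422 and 0.335. Prg4 differed more, at 1.57 and 4.10, and Eln lay at 1.43 and 0.968. Genes within 2-fold over all cells that passed it in the Y-linked set included Fgf18 at 0.468, Ctgf at 0.476, Kera at 0.453, Ldhb at 0.482 and Ly6a at 2.15. How many pups each set holds is not given in the sources used here, so these are values of 2 sets of cells and not of replicates.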

How the data were processed

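Single-cell suspensions of TMJ discs were sequenced by the authors as 10x Genomics 3′ libraries, and the deposited matrices hold raw UMI counts per gene and barcode, with no normalization. The submitters' processing notes name Cell Ranger 3.1 and mm10, while the headers of the deposited files name Cell Ranger 4.0.0. UMI counts were summed over the cells of a group and given as CPM (per 1000000 UMIs of the group), and ratios of CPM with exact intervals for 2 counts and Clopper-Pearson intervals for shares, in scipy 1.17.1 with numpy 2.4.6, pandas 2.3.3 and Python 3.11.15. Doublets were scored in scanpy 1.11.5. Only genes reaching 100 UMIs on the side of the higher level were compared, and counts under 3 were taken as 3. Levels between genes are counts of 3′ ends, which do not depend on transcript length. Whether counting used the strand is not given in the sources used here, so overlapping genes are uncertain. The ratio and thinning steps were tested on simulated data.

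The cells, gene lists and rules were chosen with earlier results of these data known. Named genes were the 7 of the rule, in each list the most abundant and up to 4 with the largest ratios in either direction, and outside the lists the 15 highest and 15 lowest ratios; others, chosen after their values were seen, are families of a list or the genes of a plot. Alternatives changed the rule (3 or 5 of 7 genes, mitochondrial, UMI, collagen and exclusion limits), the comparison cells, the depth, the weight of cells, the scaling and the minimum count. Those chosen after seeing the data were leaving out cells with 1% haemoglobin or more, leaving out the highest 10% of doublet scores, and parting cells by Xist and Y-linked genes. Promoter windows came from RefSeq on GRCm38.p6. A few genes that the rule names are not reported here.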

Additional observations from a re-analysis of the deposited data

How the results depend on the processing

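With 1 library per group there was no replicate to leave out. No paired analysis was possible because the labels give no replicate numbers. The planned run without called doublets was void, since Scrublet called 0 cells.

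The share of cycling cells, 5.43%, was 6.86% with 3 or more of the 7 genes, 4.52% with 5 or more, 6.01% among cells of at least 2000 UMIs, 1.94% with a collagen limit of 5%, 6.95% with no exclusion genes and 2.82% with the rule applied after thinning to 2000 UMIs. The 539 higher genes, of 9099 compared, became 21 with the collagen limit of 5%, which leaves 19 cycling cells and 2732 genes compared. They became 142 after thinning, with 4469 genes compared, and 254 at a minimum of 300 UMIs, with 5747 compared. The 276 lower genes became 167 with no exclusion genes, with 10770 genes compared, and 32 against UMI-matched cells, with 381 cells and 6024 genes compared. At a minimum of 30 UMIs they were 486 of 11848, and at 300 they were 98 of 5747. The other alternatives left both counts within 1.5 times. Counts can stay alike over unlike numbers of genes. Lower genes were 255 of 2732 with the collagen limit of 5% and 302 of 4469 after thinning, larger parts than 276 of 9099. The runs chosen after seeing the data, without haemoglobin-rich cells and without the highest doublet scores, gave 537 and 554 higher and 276 and 356 lower genes.

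Of named genes at least 2-fold apart, the direction turned for Hba-a1, Hba-a2 and Hbb-bt with the 5% collagen limit, to log2 ratios of -0.998, -0.92 and -0.72, and for Prg4, to -0.72. Without haemoglobin-rich cells Hba-a1, Hba-a2, Hbb-bs and Hbb-bt were at -0.46, -0.40, -0.32 and -0.22. The erythroid median was -0.92 and -0.36 in these runs. The cause was not tested, except that the second run leaves out the cells that held most of these UMIs.

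Of 74 named genes at least 2-fold apart, some came under 2-fold in the same direction. Ogn did so with the 5% collagen limit (-0.67), with no exclusion genes (-0.91), after thinning (-0.99) and in Xist cells (-0.83), Prg4 with no exclusion genes (0.79) and in Xist cells (0.65), and Smc1a with no exclusion genes (0.96) and against UMI-matched cells (0.98). With no exclusion genes Ccl5 went from -4.41 to -0.61, and the haemoglobin genes, Arid3a, Lig4 and Mapkapk5 also came under 2-fold; the haemoglobin genes did so against UMI-matched cells and against all cells at 0 to 3 of the 7 genes, and Acta1 after thinning. Eln, within 2-fold, was at 0.42 and turned to -0.09 against UMI-matched cells and to -0.05 in cells with a Y-linked UMI. Medians of gene lists rest on the members that passed the UMI minimum in each run, so runs with fewer cells or UMIs hold fewer and more abundant members, and moves of a median there are not moves of the same genes. Over all runs with at least 3 members left, the medians of the 6 lists from replication to cytokinesis stayed between 1.94 and 6.67 (log2). Within that range, the 5% collagen limit took the mitotic cyclin and kinase median from 5.51 to 2.02. The spindle and cytokinesis median went from 6.31 to 2.63 in that run. The cycle entry median (0.12) lay between -0.44 and 0.79 and the nuclear respiratory chain median (0.13) between -0.14 and 0.21. The leukocyte median went from -0.87 to 1.92 with no exclusion genes, which lets in cells with Tyrobp. Medians of glycolysis, adventitial, immediate early, mural, cycle inhibitor, collagen maturation and synovial lining genes also changed sign in at least 1 run. Genes within 2-fold that passed it in some runs included Tgfb1 and Hapln1 against UMI-matched cells, Fgf18, Kera, Ccnd2, Ctgf, Ldhb and Ly6a in cells with a Y-linked UMI, and Fgf18 and Kera after thinning. After thinning to 2000 UMIs, with 4469 genes compared, 302 genes were at least 2-fold lower and 142 higher. The 2 directions cannot be set against each other there either, because the UMI minimum still lets rarer genes enter only as lower.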
